A study of Homo sapiens with 12 samples.

Results

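Transcripts of 10 genes that encode feedback inhibitors of ERK signalling were followed in C4-2 cells after knockdown of choline kinase alpha (CHKA). The set held 6 dual-specificity phosphatase genes (DUSP1, DUSP4, DUSP5, DUSP6, DUSP7 and DUSP10), 3 Sprouty genes (SPRY1, SPRY2 and SPRY4) and SPRED1. They were chosen by name, and each of the 10 symbols matched 1 row among the 54127 gene rows of the count files. C4-2 is an established human prostate cancer cell line derived from LNCaP cells. The 6 samples labelled SiCHKA had received a 50 nM pool of siRNAs against CHKA. The 6 samples labelled SiNTCONTROL had received a non-targeting control siRNA, also at 50 nM. They are called siCHKA and siNT here. All 12 were grown in RPMI medium with 10% fetal bovine serum and reverse transfected with a lipid reagent, so the control cells had also been transfected. The labels further describe the cells as flow sorted, without saying on what. A knockdown by 1 pool in 1 line cannot separate loss of CHKA from other effects of those siRNAs.

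ERK is the last kinase of the cascade that runs from growth factor receptors through RAS, RAF and MEK. Active ERK switches on genes whose products then shut the cascade down, which is why levels of these transcripts are often read as a trace of recent ERK activity. Dual-specificity phosphatases remove phosphate from both the threonine and the tyrosine of the activation loop of MAP kinases. Sprouty and SPRED proteins act higher up, between the receptor and RAF. In prostate cancer cells, growth factor signalling through this cascade runs beside androgen receptor signalling. Messenger RNA levels were measured here, not ERK phosphorylation or phosphatase protein.

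CHKA itself averaged 2.75 ± 1.03 CPM (counts per 1000000 gene reads, SD, n = 6) in siCHKA and 40.7 ± 2.55 CPM (n = 6) in siNT, that is, 6.76% of the control level. Reads assigned to genes numbered 12158361 to 20670479 per siCHKA sample and 10685184 to 24246055 per siNT sample. The siCHKA samples did not form 1 even group. Chi-square per degree of freedom, which is near 1 when 2 samples differ by read sampling only, was 4.05 to 9.50 among replicates 1, 3 and 5 and 2.39 to 4.09 among replicates 2, 4 and 6, but 12.5 to 24.9 between those sets. Among siNT pairs it ran from 2.51 to 30.9. All 9 prostate luminal markers were measured, with a summed level of 4557 to 5713 CPM in siCHKA and 5540 to 7044 CPM in siNT. Of the other markers, 6 fibroblast genes summed to 25.0 to 32.4 CPM in siCHKA and 15.8 to 22.4 CPM in siNT, most of it COL1A1, with COL1A2 and LUM below 0.1 CPM on average. The 5 immune genes summed to 4.196 to 6.21 against 2.82 to 4.28 CPM with PTPRC, CD3E and LYZ below 0.1 CPM, and 3 of the 4 listed endothelial genes (PECAM1 is not analysed here) to 1.13 to 1.86 against 2.13 to 3.65 CPM with CDH5 and KDR below 0.1 CPM. The part of these shifts in the results was not tested.

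The 10 transcripts did not move as a block after siCHKA. DUSP7 fell to 50.5% of its siNT level and SPRY1 to 63.2%, while DUSP1 rose to 180%, DUSP10 to 139% and SPRED1 to 134%. DUSP4, DUSP5 and SPRY2 were tested and did not pass an adjusted p of 0.05 in edgeR's quasi-likelihood test. DUSP6 and SPRY4 had too few reads to pass the low-count filter of that test. The 2 members that fell stand against 30.1% of the 14501 tested genes that fell, and the 3 that rose against 32.1% that rose, so among 8 tested members these shares lie near the background. The siCHKA and siNT values did not overlap for 5 of the 8 tested members, which compares with 40.6% of all tested genes. None of the 8 members changed by 2-fold or more in the fit to all samples. Their median log2 fold change was 0.08, beside 0.03 over all tested genes. DUSP7 came nearest to 2-fold at -0.98, and it passed 2-fold in some of the refits, reaching -1.12 with siCHKA replicates 1, 3 and 5 only. In such bulk samples fewer expressing cells and less RNA per cell cannot be told apart.

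**Figure D1:**
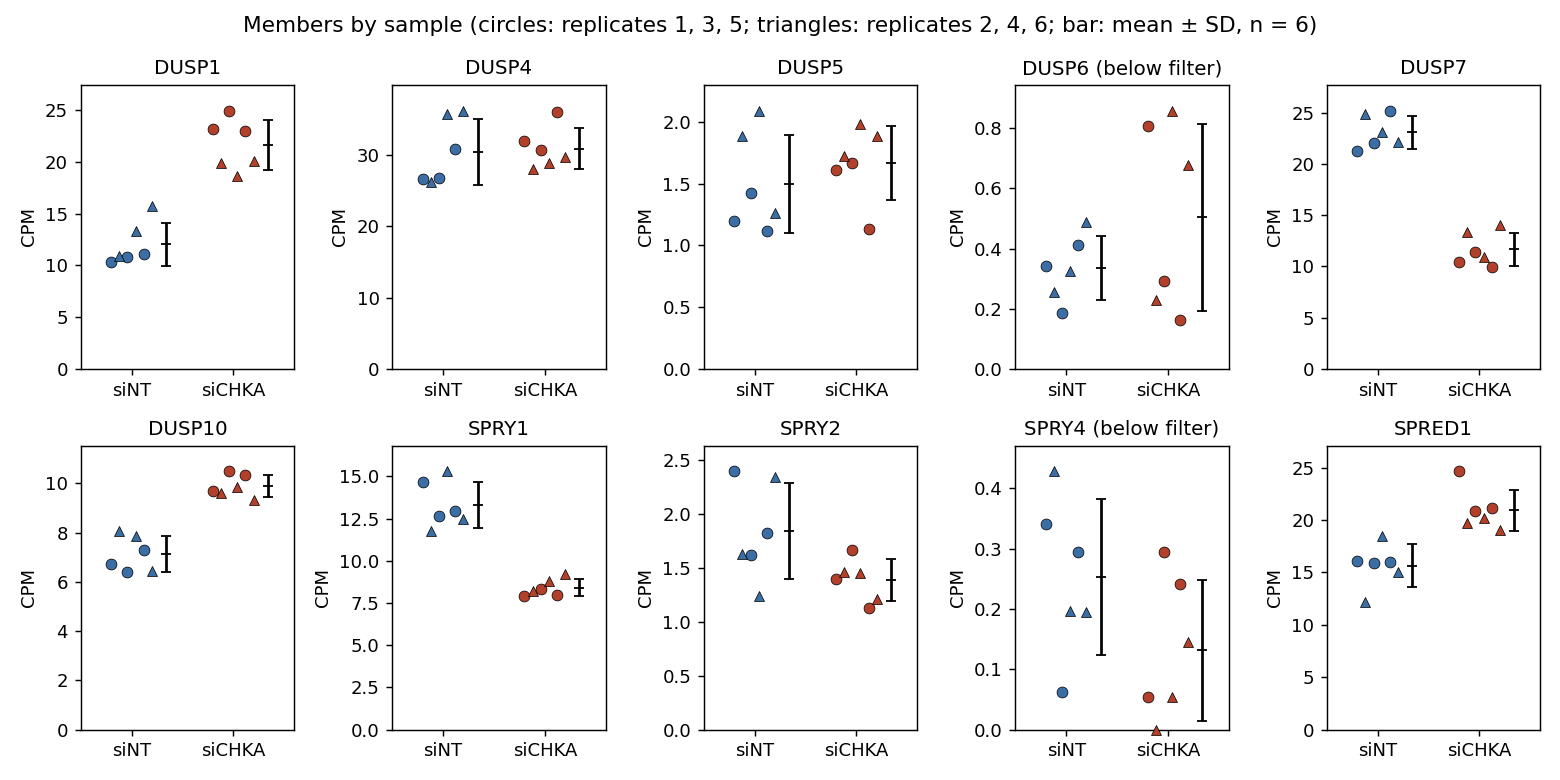
Level of each of the 10 transcripts, in CPM on a linear axis from 0, in every siCHKA and siNT sample. Points are samples, circles for replicates 1, 3 and 5 and triangles for 2, 4 and 6, and the bars give mean ± SD (n = 6). DUSP7 and SPRY1 lie lower in all 6 siCHKA samples than in any siNT sample, DUSP1, DUSP10 and SPRED1 lie higher, and the remaining genes overlap.

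DUSP1 encodes a nuclear phosphatase that acts on p38, JNK and ERK and is an immediate early gene, switched on within minutes by growth factors and stress. The gene (ENSG00000120129) lies on the minus strand of chr5:172768096-172771195 (GRCh38). Its promoter is a textbook target of CREB and related factors, so the stretch that holds its cyclic AMP response elements is shown beside the same stretch of DUSP7 and SPRY1, the 2 members that fell. Each run covers the 100 bases from 180 to 81 before the RefSeq start on GRCh38.p14, read 5′ to 3′ along the gene. Capitals mark the half-site TGACG on either strand, and 2 half-sites that overlap make the palindrome TGACGTCA.
DUSP1, minus strand of chr5:172771276-172771375: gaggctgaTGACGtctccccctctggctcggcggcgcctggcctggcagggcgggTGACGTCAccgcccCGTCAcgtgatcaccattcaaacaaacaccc
DUSP7, minus strand of chr3:52056652-52056751: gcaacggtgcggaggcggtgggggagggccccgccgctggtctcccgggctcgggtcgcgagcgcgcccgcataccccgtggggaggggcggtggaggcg
SPRY1, plus strand of chr4:123396615-123396714: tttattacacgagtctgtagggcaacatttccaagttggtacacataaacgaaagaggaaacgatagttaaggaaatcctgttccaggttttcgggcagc

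The DUSP1 stretch held 4 half-sites, of which the overlapping pair formed the palindrome at 125 to 118 bases before the start. The DUSP7 and SPRY1 stretches held none. The stretch was placed where the DUSP1 elements lie, so this difference was set by the choice and tests nothing. They also differed in base composition, with 67.0% G and C for DUSP1, 81.0% for DUSP7 and 42.0% for SPRY1. Over the full windows from 250 bases before to 50 after the start, 8 of the 10 members had an entry in the RefSeq table, with 12 windows between them because some have several starts. TGACG was found on either strand in 4 of the 12 windows, 1 each of DUSP1, DUSP10, SPRY2 and SPRY4, and in 24.55% of all 35116 windows. It was in no window of SPRED1, which rose, or of DUSP7 and SPRY1, which fell. TGACGTCA was found in 1 of the 12 (DUSP1) and in 1.85% of all windows. The AP-1 word TGANTCA was in none of the 12 and in 7.71% of all windows, and the ETS core CCGGAA was in 2 of the 12, a window of SPRY2 and one of SPRY1 at another start than the stretch shown, and in 17.25% of all windows. Such matches describe letters and do not show that a factor was bound.

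In siCHKA, DUSP1 ranged from 18.7 CPM through a median of 21.6 to 24.9 CPM. In siNT it ranged from 10.3 through 11.02 to 15.8 CPM. The lowest siCHKA sample thus lay above the highest siNT sample. The means were 21.6 ± 2.42 and 12.04 ± 2.10 CPM (SD, n = 6 each), a log2 fold change of 0.86 (SE 0.10, adjusted p = 1.44e-06, higher in 6 of 6 siCHKA samples). The exact two-sided permutation test gave p = 0.00216, the smallest value that 6 samples against 6 allow. Within siCHKA, replicates 1, 3 and 5 lay at 23.0 to 24.9 CPM and replicates 2, 4 and 6 at 18.7 to 20.1 CPM, and fitted alone against all siNT samples the former gave a log2 fold change of 1.00 and the latter 0.71, both called. A long noncoding RNA annotated on the opposite strand covers the whole gene, and its own row held 1 read over all 12 samples.

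DUSP4 encodes a second nuclear, growth factor-inducible phosphatase, related to DUSP1 in sequence and substrates. The gene (ENSG00000120875) lies on the minus strand of chr8:29333064-29350684. It stood at 28.0, 30.2 and 36.0 CPM (lowest, median and highest) in siCHKA. The corresponding siNT values were 26.2, 28.9 and 36.2 CPM. The groups covered almost the same range. Means of 30.9 ± 2.86 and 30.4 ± 4.65 CPM gave a log2 fold change of 0.02 with a 95% interval of -0.17 to 0.21 (adjusted p = 0.845), which leaves out the size of change seen for DUSP1. Replicates 1, 3 and 5 of siCHKA (30.7 to 36.0 CPM) again lay above replicates 2, 4 and 6 (28.0 to 29.7 CPM).

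DUSP5, a nuclear phosphatase selective for ERK and one of the classical ERK-induced genes, was scarce. The gene (ENSG00000138166) lies on the plus strand of chr10:110497907-110511533. It ranged from 1.13 through 1.70 to 1.98 CPM in siCHKA, on 14 to 39 reads per sample. In siNT it ranged from 1.12 through 1.35 to 2.09 CPM, on 13 to 44 reads. The groups overlapped over nearly their whole ranges. The log2 fold change was 0.15 with a 95% interval of -0.24 to 0.53 (adjusted p = 0.504), and the depth of these reads leaves that interval wide. Here replicates 1, 3 and 5 (1.13 to 1.67 CPM) were the lower of the siCHKA samples and replicates 2, 4 and 6 (1.73 to 1.98 CPM) the higher, the reverse of DUSP1 and DUSP4.

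DUSP6 and DUSP7 encode the cytoplasmic phosphatases that are selective for ERK, and DUSP6 is the member most often used as a readout of pathway output. DUSP6 (ENSG00000139318, minus strand of chr12:89347235-89352501) was barely present in these cells. The 6 siCHKA samples held 58 DUSP6 reads in all, from 2 to 16 each, and the 6 siNT samples held 30, from 3 to 7 each. The lowest and the highest counts of all 12 samples were both in siCHKA. Mean levels were 0.504 ± 0.311 CPM in siCHKA and 0.335 ± 0.107 CPM in siNT (exact permutation p = 0.370). With no filter on low counts edgeR gave a log2 fold change of 0.63 (adjusted p = 0.249). No change of DUSP6 was detected on so few reads.

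In the fit to all reads, DUSP7 had the largest change of the 8 tested members. The gene (ENSG00000164086) lies on the minus strand of chr3:52048919-52056571. It ran from 9.92 through 11.1 to 14.02 CPM in siCHKA. In siNT it ran from 21.3 through 22.6 to 25.2 CPM. A wide gap therefore separated the groups, and all 6 siCHKA samples lay below every siNT sample. The means of 11.7 ± 1.65 and 23.1 ± 1.62 CPM gave a log2 fold change of -0.98 (SE 0.09, adjusted p = 3.29e-08, exact permutation p = 0.00216). Replicates 1, 3 and 5 (9.92 to 11.4 CPM) and replicates 2, 4 and 6 (10.9 to 14.02 CPM) overlapped, and fitted alone they gave -1.12 and -0.87. With 1 of the 4 count files per sample the value was -0.69, smaller in size than those of DUSP1 (0.93) and SPRY1 (-0.75) in that fit.

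DUSP10 encodes a phosphatase that prefers JNK and p38 over ERK. The gene (ENSG00000143507) lies on the minus strand of chr1:221701424-221742089. It was 9.33, 9.78 and 10.5 CPM (lowest, median and highest) in siCHKA. In siNT it was 6.40, 7.02 and 8.05 CPM. The siCHKA values were tight, with a coefficient of variation of 4.48% compared with 10.0% in siNT, and they did not meet the siNT range. The log2 fold change was 0.46 (SE 0.08, adjusted p = 9.14e-05, exact permutation p = 0.00216).

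**Figure D2:**
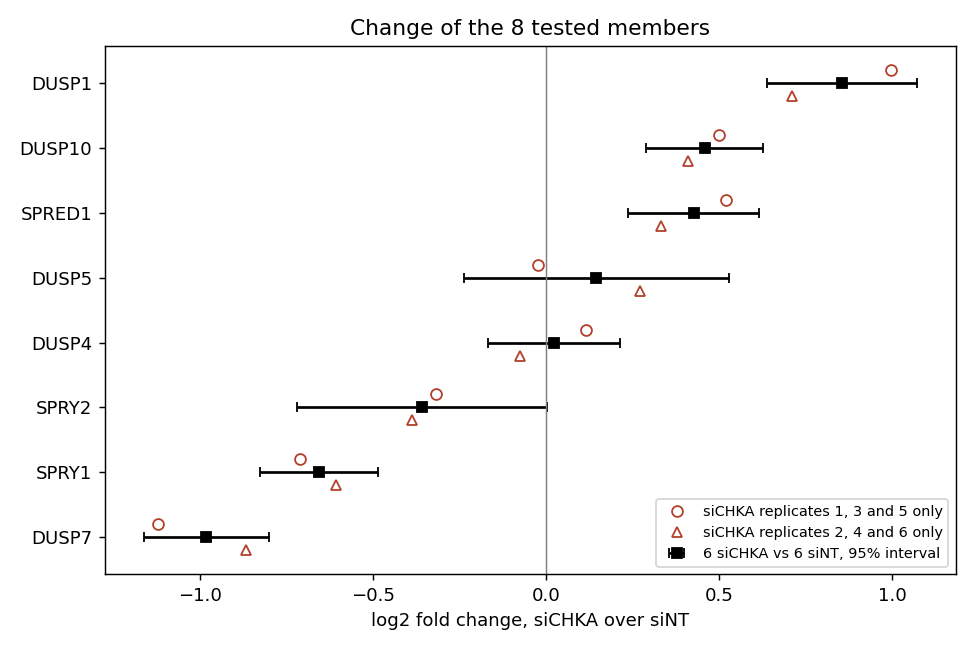
Change of each tested member as log2 fold change, siCHKA over siNT, with 95% intervals from the fit to all samples, and the values obtained with siCHKA replicates 1, 3 and 5 or 2, 4 and 6 alone. DUSP7 (-0.98) and SPRY1 (-0.66) lie left of 0, DUSP1 (0.86), DUSP10 (0.46) and SPRED1 (0.43) lie right of it in each of the 3 fits, and the intervals of DUSP4, DUSP5 and SPRY2 include 0.

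Sprouty proteins are recruited to the membrane after receptor activation and hold back the step from receptor to RAS and RAF. SPRY1 (ENSG00000164056) lies on the plus strand of chr4:123396795-123403760. In siCHKA it ranged from 7.91 through 8.26 to 9.23 CPM. In siNT it ranged from 11.8 through 12.8 to 15.3 CPM. The highest siCHKA sample lay below the lowest siNT sample. Means of 8.41 ± 0.513 and 13.3 ± 1.38 CPM gave a log2 fold change of -0.66 (SE 0.08, adjusted p = 1.95e-06, exact permutation p = 0.00216). The 2 sets of siCHKA replicates gave -0.71 and -0.61.

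SPRY2 (ENSG00000136158, minus strand of chr13:80335976-80341126), the Sprouty family member best known for lowered expression in prostate cancer, was much scarcer. It ran from 1.13 through 1.42 to 1.67 CPM in siCHKA, on 14 to 34 reads per sample. In siNT it ran from 1.24 through 1.73 to 2.39 CPM, on 19 to 38 reads. Replicates 1, 5 and 6 of siNT lay above every siCHKA sample, and the other 3 lay within the siCHKA range. The log2 fold change was -0.36 with a 95% interval of -0.72 to 0.002 (adjusted p = 0.0781, exact permutation p = 0.0563). Without siNT replicate 4, the lowest control at 1.24 CPM, it was -0.46 with an adjusted p of 0.0251.

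SPRY4 (ENSG00000187678, minus strand of chr5:142310427-142326455) is, with DUSP6, among the genes that follow ERK output most closely in many cell types. It held 14 reads over the 6 siCHKA samples, from 0 to 6 each, and 25 over the 6 siNT samples, from 1 to 10 each. Its mean level was 0.131 ± 0.117 CPM in siCHKA and 0.253 ± 0.129 CPM in siNT (exact permutation p = 0.113). The 3 reads that set the detection floor of a sample were worth 0.124 to 0.281 CPM on library sizes without TMM scaling. In 8 of the 12 samples there were no more than 3 SPRY4 reads. With no filter edgeR gave a log2 fold change of -1.07 (adjusted p = 0.140). On so few reads no change of SPRY4 was detected. The overlapping SPRY4-AS1 row on the other strand held 1 read over all 12 samples.

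SPRED1 brings neurofibromin, the GTPase activating protein encoded by NF1, to the membrane, where it switches RAS off. SPRED1 (ENSG00000166068) lies on the plus strand of chr15:38252836-38357249. It ranged from 19.1 through 20.5 to 24.6 CPM in siCHKA. In siNT it ranged from 12.2 through 16.0 to 18.5 CPM. All siCHKA samples lay above all siNT samples, though by a small margin. The log2 fold change was 0.43 (SE 0.09, adjusted p = 5.50e-04, exact permutation p = 0.00216). It was 0.52 from siCHKA replicates 1, 3 and 5 (20.9 to 24.6 CPM) and 0.33 from replicates 2, 4 and 6 (19.1 to 20.2 CPM). NF1 itself fell, as described with the pathway genes.

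Levels were compared between members as CPM per kilobase of exon. In siNT, DUSP1 was highest at 5.98 ± 1.04 CPM per kilobase (SD, n = 6). DUSP4 (4.18), DUSP7 (4.07) and SPRY1 (3.36) followed, and neighbours in that order overlapped, as did DUSP10 (2.52) and SPRED1 (2.02) after them. DUSP5 (0.591) and SPRY2 (0.572) overlapped each other at a lower level, and DUSP6 (0.087) and SPRY4 (0.039) overlapped at the bottom. In siCHKA, DUSP1 rose to 10.7 ± 1.20 CPM per kilobase. By mean, DUSP10 (3.495) and SPRED1 (2.70) stood above SPRY1 (2.12) and DUSP7 (2.06), and DUSP7 went from the third to the sixth place. The siCHKA range of DUSP7 reached 2.47, just above the lowest SPRED1 sample at 2.46, and it overlapped that of SPRY1. The order depended on the length used: per kilobase of the longest transcript DUSP7 was at 6.87 in siNT, above DUSP1 at 5.98, with overlapping ranges.

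**Figure D3:**
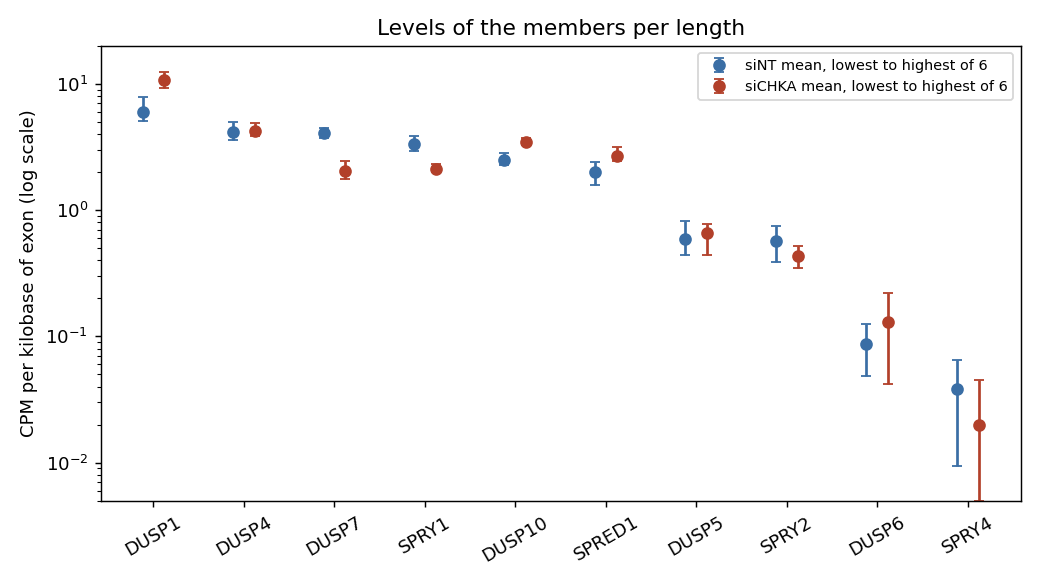
Level of each member in CPM per kilobase of exon, on a log axis, with the mean and the lowest and highest sample of each group (n = 6). Of the 10 members, 6 stand between 2.02 and 5.98 in siNT and 4 stand below 0.6. The siCHKA range of SPRY4 is drawn to the edge of the axis because 1 sample held 0 reads.

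The members' deviations from their own group mean (log2 CPM, 12 samples) were compared over the 28 pairs of tested members. The highest Pearson correlation was 0.82, between DUSP1 and DUSP4, and the lowest was -0.48, between DUSP7 and SPRED1. DUSP5, the other nuclear member, did not follow them (-0.12 with DUSP1 and -0.21 with DUSP4). Each pair shares its libraries and the division of the siCHKA samples, so these values are descriptions. The genes most like DUSP6 by the same measure were DCAF16 (0.83), TTLL7 (0.82) and ZNF263 (0.82). Those most like SPRY2 were CASP8AP2 (0.85), ZGRF1 (0.83) and SETDB1 (0.83). In each case they were picked as the 3 highest of 9629 candidates over 12 samples, and the values were not tested against chance. The DUSP6 values rest on 2 to 16 reads per sample and the SPRY2 values on 14 to 38.

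The 3′ UTRs of the members, taken from the longest coding transcript, were 666 to 5585 bases long. The words GCCAGAT and TGCCCTT, which had been picked earlier in 3′ UTRs of genes that fell in these same samples, occurred in none of the 10. Among 12266 tested genes with a 3′ UTR, 25.1% held one or the other. Of 64 tested genes of the pathway lists described last, 20 held one or the other. Among those named there, PEA15, RPS6KA3, PTPN11, FRS2, FGFR4 and NF1, which fell, and DUSP8 and LAMTOR3, which rose, held at least 1 copy. ERRFI1, SHC1, MAPK3, MAPK9, MAPK13 and MYC, which also fell, held none. MAP2K2, EPHA2, CCND1, PHLDA1, MAPK11 and MAP2K6, which rose, held none either. Because the words were picked in genes that fell in these samples, their presence in such genes tests nothing.

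Other genes of the pathway are given from 5 lists, whose counts stand beside 30.1% of all tested genes that fell and 32.1% that rose. Of 16 other MAP kinase phosphatases and RAS or receptor inhibitors, 14 were tested, 8 fell, 4 rose and 2 did not pass, with a median log2 fold change of -0.26 (all genes, 0.03). PEA15, a small protein that tethers ERK in the cytoplasm, fell from 148 ± 8.39 to 53.1 ± 1.66 CPM (log2 fold change -1.48, adjusted p = 1.31e-13). NF1 fell from 244 ± 52.2 to 164 ± 31.4 CPM (-0.57, adjusted p = 0.0017), with groups that overlapped, and ERRFI1, a feedback inhibitor of EGFR, fell from 43.3 to 29.2 CPM (-0.57). DUSP8, a phosphatase of JNK and p38 like DUSP10, rose from 10.98 to 19.1 CPM (0.80, adjusted p = 9.19e-08).

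All 17 receptors and adaptors upstream of RAS were tested, and 5 fell, 7 rose and 5 did not pass (median 0.03). PTPN11, the phosphatase SHP2 that carries receptor signals to RAS, fell from 281 to 141 CPM (-0.997), and FRS2 (-0.68), FGFR4 (-0.63) and SHC1 (-0.56) also fell. All 16 genes from RAS to ERK and its kinase targets were tested, and 5 fell, 5 rose and 6 did not pass (median -0.06). RPS6KA3, a kinase activated by ERK, fell from 160 to 66.6 CPM (-1.27) and MAPK3, which encodes ERK1, fell (-0.51), while MAP2K2 (0.46) and LAMTOR3 (0.45), which encode MEK2 and a MEK scaffold, rose. The count that fell was 3 with siCHKA replicates 1, 3 and 5 alone and 8 with replicates 2, 4 and 6 alone.

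Of 12 further ERK-induced transcripts, 7 were tested, 4 rose, 1 fell and 2 did not pass (median 0.27). EPHA2 rose from 11.8 to 22.6 CPM (0.93), CCND1 from 344 to 502 CPM (0.55) and PHLDA1, with overlapping groups, from 23.9 to 31.9 CPM (0.43), while MYC fell from 333 to 233 CPM (-0.52). ETV4 and ETV5, which are induced with DUSP6 and SPRY4 in many cells, were below the filter as those 2 members were. Of 11 JNK and p38 kinases and their activators, 10 were tested, 3 rose, 3 fell and 4 did not pass (median 0.11). MAPK11 (0.66) and MAP2K6 (0.61) rose, and MAPK9 (-0.58) and MAPK13 (-0.46) fell. Without siCHKA replicate 2 the number that rose was 5.

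**Figure D4:**
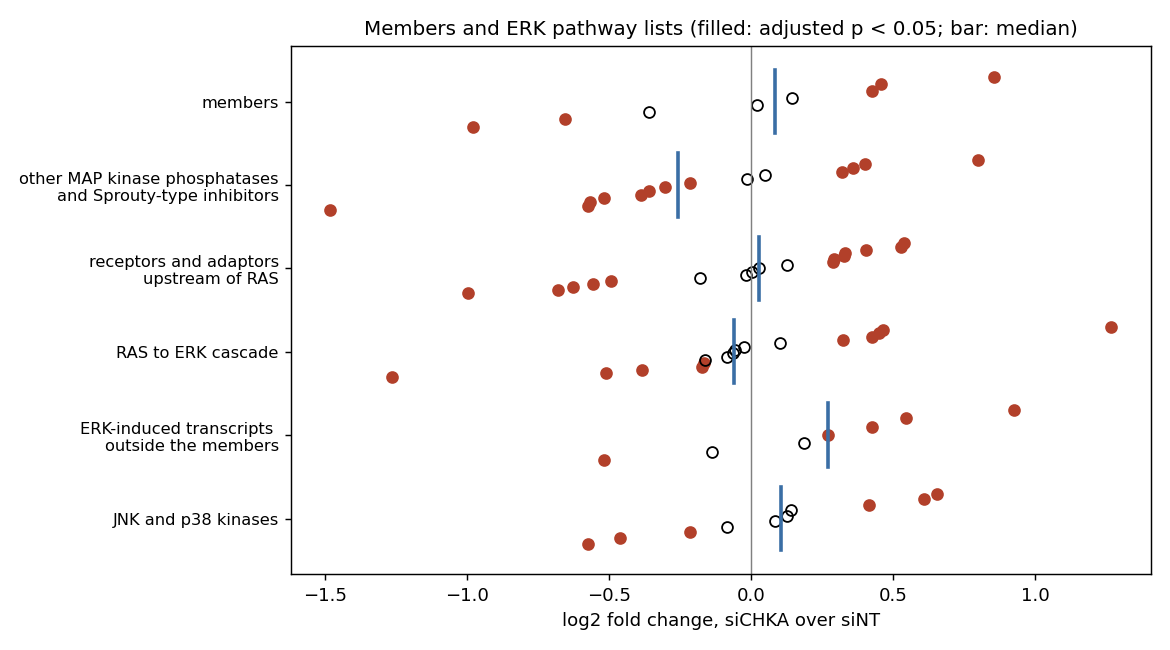
Each point is the log2 fold change, siCHKA over siNT, of 1 tested gene among the members and each of the 5 pathway lists. Filled points passed an adjusted p of 0.05 and upright bars are medians. Of the 8 tested members 2 fell and 3 rose. The list of other phosphatases and inhibitors had 8 falls and 4 rises among 14 tested genes, and the RAS to ERK list 5 of each among 16. Over all tested genes 30.1% fell and 32.1% rose.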

How the data were processed

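RNA sequencing libraries (TruSeq kit, single-end reads of 40 bases) were made from 12 C4-2 samples. The labels name miRNeasy extraction from flow sorted cells and the study's methods an Allprep kit, and which applied is not settled here. The authors aligned the reads with TopHat2 2.0.4 to GRCh37, counted them per Ensembl gene with HTSeq 0.5.3p9 and deposited raw counts, with 4 count files per sample. Whether counting used strand is not given in the sources used here. The 4 files of each sample differed by sampling noise only and were summed. Between 33.87% and 38.96% of the counts lay outside the gene rows (no feature, ambiguous or not uniquely aligned) and were left out. The reported samples are numbered replicates, but the labels do not say that they were separate cultures. A legend of the paper describes the knockdown experiments as biological triplicates, and another gives 6 biological replicates. Which of these applies to the numbered samples is not settled here. The p-values therefore measure only the spread between these samples, which may be technical.

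Genes were tested with edgeR 4.0.16 (R 4.3.3): filterByExpr, TMM scaling and the quasi-likelihood test of the 6 SiCHKA against the 6 SiNTCONTROL samples with no covariate, with Benjamini-Hochberg adjustment over all 14501 genes that passed the filter. CPM values use TMM-scaled library sizes, and log2 CPM a prior count of 2. Exact two-sided permutation tests of log2 CPM and DESeq2 1.42.0 were run beside it. Gene names, positions, exon lengths and 3′ UTRs came from GENCODE 44 on GRCh38, joined by Ensembl identifier, and promoters from RefSeq. Identifiers matched a name for 44824 of 54127 rows. No sequence of the siRNAs is given in the sources used here.

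Members and gene lists were chosen with earlier results of these data known. The text names all 10 members, CHKA, up to 4 genes per pathway list (largest change among those with an adjusted p below 0.05 and at least 5 CPM on average) and the 3 genes most like DUSP6 and SPRY2 (at least 10 CPM). ETV4, ETV5 and marker genes were named after their values were seen. One immune marker is not reported here. Alternatives were RLE scaling, DESeq2, a block for replicate number, each sample left out, no filter or a stricter one (10 counts in each sample), siCHKA replicates 1, 3 and 5 or 2, 4 and 6 only, 1 count file per sample, a 2-fold minimum and the longest transcript as length.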

Additional observations from a re-analysis of the deposited data

Results flagged for a closer look

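One of 20 groups of member values examined for a single sample far from the rest was picked out. SPRED1 in siCHKA replicate 1, at 24.6 CPM, lay above the other 5 siCHKA samples (19.1 to 21.1 CPM), with a gap of 0.631 of the group's range, just past Dixon's critical value. Chance picks out about 1 in 20 such groups. Without that sample the call of SPRED1 as higher was kept.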

How the results depend on the processing

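The 5 called members kept their direction and their call in all 20 refits, with log2 fold changes of 0.71 to 1.00 for DUSP1, -1.12 to -0.69 for DUSP7, 0.41 to 0.53 for DUSP10, -0.75 to -0.61 for SPRY1 and 0.33 to 0.52 for SPRED1. DUSP4, uncalled in every refit, was -0.0067 with no filter, -0.0747 with siCHKA replicates 2, 4 and 6 only, and -0.0243 to 0.069 with 1 sample left out. DUSP5, also uncalled, was -0.0228 with siCHKA replicates 1, 3 and 5 only. SPRY2 was -0.46 to -0.29 with 1 sample left out, and was called only without SiNTCONTROL replicate 4. A 2-fold minimum left 654 lower and 785 higher genes. Lower genes from RAS to ERK numbered 3 with siCHKA replicates 1, 3 and 5 only, 8 with 2, 4 and 6 only and 3 with 1 count file per sample, and higher JNK and p38 kinases 6 with replicates 1, 3 and 5 only and 3 to 5 with 1 sample left out. Per kilobase of the longest transcript the siNT levels of DUSP4, DUSP7 and SPRY1 were 5.48, 6.87 and 5.10. The causes were not tested, apart from the shorter lengths. DUSP5 and SPRY2 had no value with 1 count file per sample. DUSP6 and SPRY4 were limited by their few reads.

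Same-numbered samples did not pair: the correlations of their deviations ran from -0.396 to 0.321 and 2 of 6 exceeded 0.1. With the replicate number as a block, 4273 genes were lower and 4494 higher, and no member's call changed.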
